A study of Mus musculus with 30 samples.

Results

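Subcutaneous fat of mice labelled as lacking the growth hormone receptor (KO) was compared with subcutaneous fat of mice labelled as carrying a receptor truncated at amino acid 391 (391). The members are the 6 fat arrays with these labels, 3 of each, out of 30 arrays in the series. Both groups were male knock-in or knockout mice aged 4 months that had been starved overnight before the tissue was taken, so the fasted state is common to every group. The 6 arrays lay on 1 slide. The other fat arrays, used here for the spread and for reference levels, were 3 each of wild type (WT), of a truncation at amino acid 569 and of a receptor mutated in Box1, and the series holds the same 5 labels in liver. The fat arrays labelled WT and 569 lay on another slide and those labelled Box1 on a further one, so label and slide cannot be told apart where KO or 391 is set against these groups. The labels do not say whether each array is a separate animal, so the p-values speak for the spread among these arrays alone, and some of that spread may be technical.

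The growth hormone receptor is a cytokine receptor of the cell surface. Its Box1 segment, next to the membrane, holds the kinase JAK2, and phosphorylated tyrosines further along the tail are docking sites for the transcription factor STAT5, which drives Igf1 and the feedback genes Socs2 and Cish. The 391 truncation keeps Box1 and loses the tyrosines on which STAT5 docks, while the KO loses the whole receptor. The comparison therefore asks what the part of the receptor that still binds hormone and JAK2 does in fat. In adipose tissue growth hormone is known for promoting the release of stored fatty acids and for opposing insulin.

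The deposited value of a probe is its ratio to the median of that probe in the 15 arrays of the tissue, so a ratio of 1 is the middle of the tissue and no absolute level remains. Differences below are on the log2 scale, as the mean of the arrays labelled KO minus the mean of those labelled 391 ± SE from limma, and a probe is called where its Benjamini-Hochberg adjusted p over all 46643 probes is under 0.05. The SE of a fat difference is pooled over all 15 fat arrays, so an outlying array of another label can widen it. Array medians ran from 0.98 to 1.01.

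One fact about the labels has to stand before the results. The direction of the difference between the arrays labelled KO and 391 was mostly opposite in fat and in liver. Of the 8 probes called in fat, 7 had the opposite sign in liver. Of 24 genes taken in fat (12 each way without overlap between the groups, called ones first and then by smallest p with a difference of at least 1), 23 had the opposite sign. The comparison of the same labels in liver called 84 probes (0.180%), and 66 of them were opposite in fat, with a correlation of −0.65 between the differences over these 84 probes. Over all probes 53.9% were opposite and the correlation was −0.22. Probes are not independent replicates, and these correlations are descriptions.

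**Figure D1:**
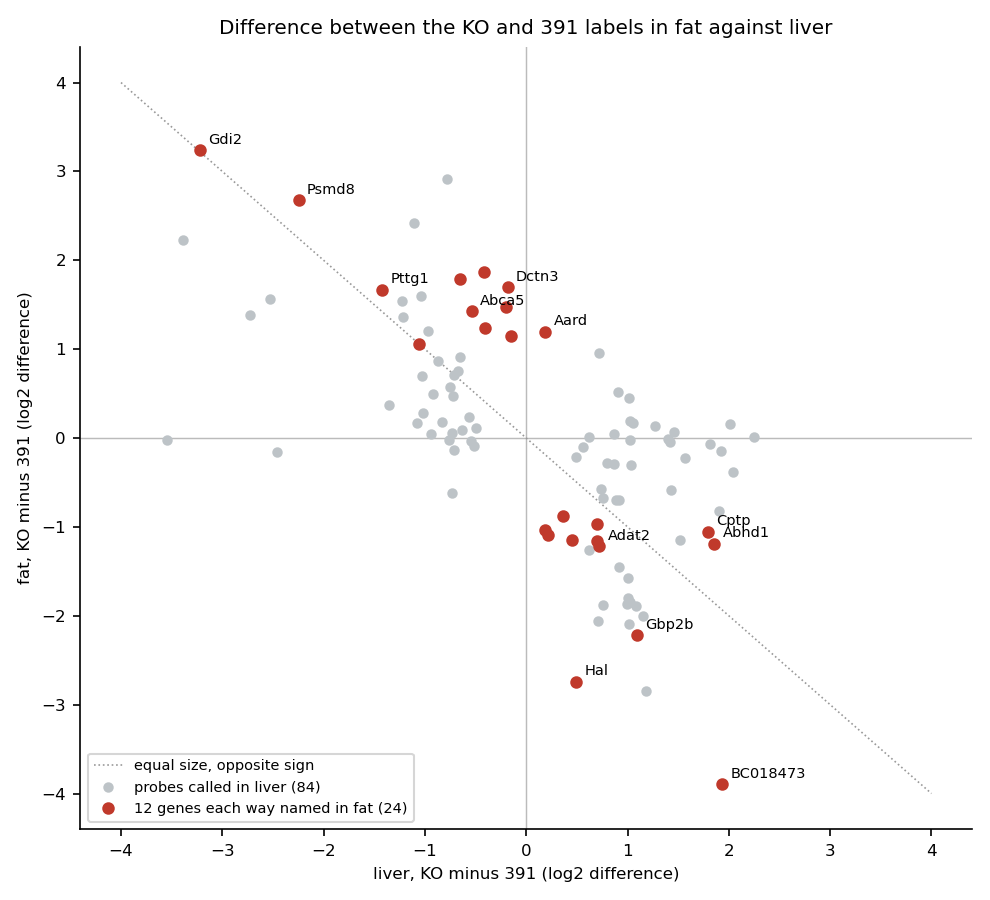
Each point is a probe, with the KO minus 391 log2 difference in liver on the horizontal axis and in fat on the vertical axis; red points are the 12 genes named each way in fat, grey points the 84 probes called in liver, and the dotted line marks differences of equal size and opposite sign. Gdi2 lies at 3.24 in fat and −3.22 in liver, and 23 of the 24 red points lie in the quadrants of opposite sign.

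The groups were also set against each other across tissues over the 25 probes whose moderated F test across the 5 labels gave p under 0.001 in each tissue. Many of these probes, those of Gdi2, Pttg1, Abca5, Psmd8 and BC018473 among them, also enter the counts of signs above. The correlations are thus not separate from those counts. This choice of probes was made after the data were seen and uses the labels within each tissue, but not which label is which. Each profile was first centred on the mean of the 5 group means of its tissue. A group that stands far apart thus pushes the other groups to the opposite side, so these correlations are not independent of each other. The mean profile of the fat arrays labelled 391 correlated at 0.82 with the liver arrays labelled KO and at −0.52 with the liver arrays labelled 391. Each of the 3 fat arrays labelled 391 lay between 0.78 and 0.82 with the liver KO label. The fat arrays labelled KO correlated at 0.60 with the liver arrays labelled 391, at 0.57 with those labelled Box1 and at −0.55 with those labelled KO. The same label gave 0.41 for WT, 0.37 for 569 and 0.52 for Box1, and the fat arrays labelled Box1 gave 0.57 with the liver arrays labelled 391. Whether KO and 391 name the same genotypes in both tissues is not settled by the files. If the labels were exchanged in 1 tissue, every fat difference given here would turn its sign if that tissue is fat, with sizes and p-values as they stand. An exchange in either tissue would also swap, up to sign, the interaction between the tissues and the sum of their differences, both tested below. What the interaction and sum calls mean therefore depends on the labels. For this reason the groups are called by their labels throughout.

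**Figure D2:**
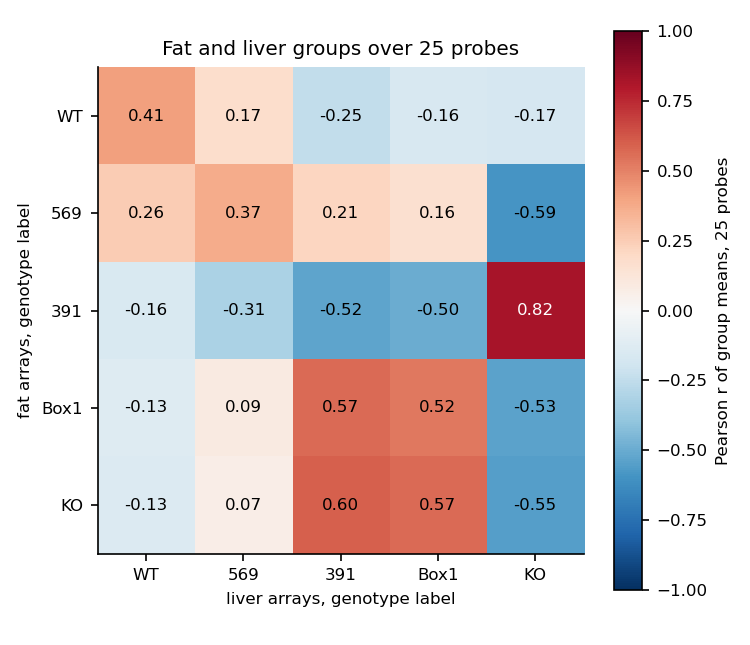
Pearson correlation of group means over 25 probes, with the fat labels in rows and the liver labels in columns. Each mean was centred on the mean of all groups of its tissue. Red is positive and blue negative. The square of fat 391 with liver KO is at 0.82, and those of fat 391 with liver 391 and of fat KO with liver KO are at −0.52 and −0.55.

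Ghr, the targeted gene, is measured by a pair of probes for which no source used here gives the position relative to the mutated part, so it may be that they check nothing. The probe with the larger spread (100360095) had ratios of 1.03, 0.68 and 1.26 in the arrays labelled KO and of 0.46, 0.27 and 0.47 in those labelled 391. The groups did not overlap, and the difference of 1.31 ± 0.73 was not called (adjusted p = 0.79). The 569 arrays, which enter this pooled SE, read 1.04, 1.52 and 0.13. The other probe (2260156) had ratios of 1.12, 0.29 and 0.46 under KO and of 1, 0.5 and 0.95 under 391, which overlapped, with a difference of −0.56 ± 0.55 (adjusted p = 0.904). Ghr message was thus not lower at both probes under the KO label. In the order of protein-coding genes, 29 lie within 25 positions of Ghr, and 23 of these were measured. Only Selenop among the measured ones lies before Ghr, so the check is nearly all on 1 side. None of the 23 was called by limma, and 1 had an unadjusted p under 0.05.

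In fat, 4 probes were called higher in the arrays labelled KO (0.00858% of all probes) and 4 were called lower (0.00858%). An unadjusted p under 0.05 was found for 3124 of the 46643 probes. The 4 higher were probes of Gdi2, Pttg1, Abca5 and Anxa1. The 4 lower were probes of Thg1l, Fmr1 and Adat2 and 1 probe with no gene name. Quantile normalization called 50 higher and 31 lower, all 8 among them.

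Gdi2, which extracts Rab GTPases from membranes, had ratios of 1.09, 1.04 and 1 in the arrays labelled KO and of 0.15, 0.09 and 0.1 in those labelled 391. All arrays labelled WT, 569 and Box1 lay between 0.43 and 1.26, so the 391 label is the one that stands apart. The difference was 3.24 ± 0.35, 9.43-fold (adjusted p = 0.00961). The other Gdi2 probes gave 0.55 and −0.07 and were not called, so the difference belongs to 1 probe and not to every probe of the gene. In liver the same probe read 0.13, 0.14 and 0.13 under KO and 1.26, 1.03 and 1.47 under 391.

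Pttg1 encodes securin, which holds back separase until sister chromatids part. Its ratios were 0.94, 1.04 and 1 in the arrays labelled KO and 0.35, 0.31 and 0.28 in those labelled 391. The difference was 1.67 ± 0.16 (adjusted p = 0.00617). The 391 label again lay below every other fat array. It also differed from WT in fat (−1.83, adjusted p = 0.00446), whereas KO did not pass against WT (−0.16, adjusted p = 0.943).

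Abca5, an ATP-binding cassette transporter of lysosomes, had ratios of 1.79, 1.52 and 1.31 under KO against 0.52, 0.6 and 0.59 under 391. The difference was 1.43 ± 0.15 (adjusted p = 0.00832). The fat arrays labelled Box1 read 1.5, 1.1 and 1.36, nearer to KO, and those labelled WT read 0.81, 1.15 and 1. The other Abca5 probes gave −0.04 and 0.08. Anxa1 is a phospholipid-binding protein that dampens inflammation and is induced by glucocorticoids. At its called probe it lay higher under KO than in all 12 other fat arrays. This probe read 1.47, 1.91 and 1.94 under KO and 0.86, 0.88 and 0.95 under 391, a difference of 0.97 ± 0.13 (adjusted p = 0.0368). The Anxa1 probe with the larger spread gave 1.06 ± 0.58, with overlapping groups, and was not called (adjusted p = 0.788).

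Thg1l, which adds a guanosine to the end of histidine tRNA, read 0.95, 0.84 and 0.93 under KO and 1.91, 1.77 and 1.65 under 391. The difference was −0.97 ± 0.12 (adjusted p = 0.0311). The other Thg1l probe gave −0.30 and was not called. Adat2, a subunit of the deaminase that makes inosine in tRNA anticodons, read 1.06, 0.75 and 0.94 under KO and 2.59, 1.91 and 1.9 under 391, a difference of −1.22 ± 0.16 (adjusted p = 0.0368). In both genes the 9 arrays of the other labels lay with KO. Fmr1, which encodes an RNA-binding protein that represses translation, read 0.7, 0.75 and 0.78 under KO and 1.4, 1.43 and 1.26 under 391, with the other labels between them. Its difference was −0.87 ± 0.12 (adjusted p = 0.0368), and its 3 other probes lay between −0.05 and 0.03. The probe with no gene name (103450315) read 0.93, 0.76 and 0.95 under KO and 2.24, 2.38 and 2.43 under 391 (−1.42 ± 0.14, adjusted p = 0.00617).

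**Figure D3:**
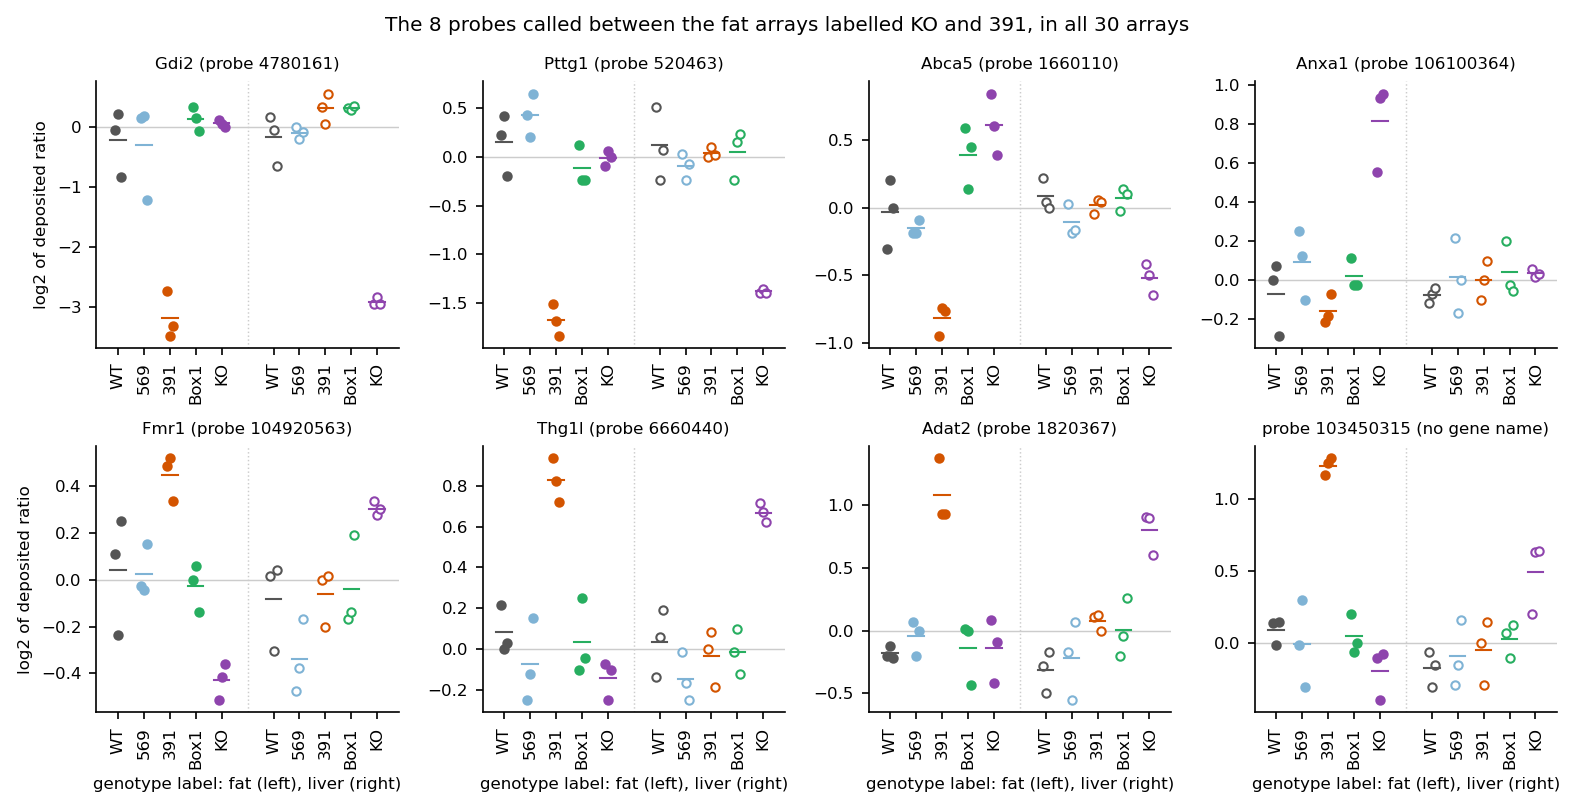
One panel for each of the 8 called probes, with the log2 of the deposited ratio on the vertical axis and the genotype label on the horizontal axis, fat (filled) on the left and liver (open) on the right; points are arrays and bars are means of 3. In fat the 391 label lies outside the other 12 arrays in every panel but that of Anxa1, and in these 7 panels the liver arrays labelled KO stand on the side on which 391 stands in fat.

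The calls depended on single arrays. Without the second KO array or without the second 391 array limma called 0 probes, with 2335 and 2728 probes at an unadjusted p under 0.05. Without the first and the third KO array it called 5 and 3, and without the first and the third 391 array 4 and 12. The differences themselves moved little: Gdi2 lay between 3.09 and 3.46 and Pttg1 between 1.59 and 1.75 in these fits and in the fit without the third 569 array. That 569 array had marker lists far from all others, and without it 43 probes were called, the 8 among them. With the 6 arrays alone 123 were called.

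Beyond the called probes, the genes described next come from the 24 taken by the rule above, which ranks by p and not by the size of the difference. The 12 on the KO side are Gdi2, Pttg1 and Abca5 and, not called, Aard, Cpne9, Psmd8, Rab6b, Tead1, Pla2g12a, Mrps12, Trim16 and Dctn3. Psmd8, a subunit of the 19S cap of the proteasome, read 1.38, 1.04 and 1.2 under KO and 0.13, 0.11 and 0.46 under 391 (2.68 ± 0.47, adjusted p = 0.135). Mrps12, a protein of the small mitochondrial ribosomal subunit, read 0.98, 1 and 1.13 against 0.42, 0.41 and 0.72 (1.05 ± 0.21, adjusted p = 0.267). For both, the third 391 array lay above the other 2 of its group.

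Another set on the KO side was high under Box1 as well. Dctn3, a subunit of the dynactin complex that links dynein to its cargo, read 3.31, 2.81 and 2.37 under KO, 0.99, 0.83 and 0.78 under 391, and 3.31, 1.37 and 1.93 under Box1. Cpne9, a copine that binds phospholipids in the presence of calcium, read 2.1, 2.21 and 3.77 under KO, 1.06, 1 and 0.77 under 391, and 2.51, 1.34 and 2.09 under Box1. The other Cpne9 probe gave a KO minus 391 difference of −0.008. Aard read 2.09, 1.62 and 2.23 under KO, 0.81, 0.89 and 0.87 under 391, and 2.05, 1.36 and 1.51 under Box1. In these 3 genes the 391 arrays lay near WT. The fitted differences were 1.70 ± 0.36 for Dctn3, 1.47 ± 0.25 for Cpne9 and 1.20 ± 0.19 for Aard (adjusted p = 0.279, 0.12 and 0.0854), and none was called. Tead1, the DNA-binding partner of YAP, lay at 1.24 ± 0.23 (adjusted p = 0.202).

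The 12 genes on the 391 side are Adat2, Thg1l and Fmr1 and, not called, Dmtf1, Sppl2a, Abhd1, BC018473, Cptp, Gbp2b, Hal, Ppp1r3b and 2900060B14Rik. BC018473 read 20.83, 13.96 and 11.01 in the arrays labelled 391 and 1.11, 0.88 and 1 in those labelled KO. Its remaining fat arrays lay between 0.83 and 1.08 except the third WT array at 8.99, and the difference was −3.89 ± 0.66 (adjusted p = 0.119). The other BC018473 probe gave −0.68. Gbp2b, an interferon-induced GTPase, read 7.87, 4.42 and 6.25 under 391. Under KO it read 3.37, 0.81 and 0.79, so the first KO array lay apart from the other 2 (−2.22 ± 0.51, adjusted p = 0.36).

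Hal, histidine ammonia-lyase, which starts the breakdown of histidine in liver and skin, read 8.82, 2.7 and 10.35 under 391 and 0.87, 0.95 and 1 under KO (−2.74 ± 0.66, adjusted p = 0.422). The hepatocyte marker list had medians of −0.17, −0.27 and −0.35 in the same 391 arrays, below the middle of the tissue. The second WT array and the second Box1 array also read high for Hal, at 4.49 and 2.95, and their hepatocyte medians were 2.21 and 4.14. From which cells the Hal message came was not tested in any of these arrays. Abhd1 read 2, 2.32 and 1.7 under 391 against 0.9, 0.75 and 0.99 under KO (−1.19 ± 0.19, adjusted p = 0.0864). Cptp, which carries ceramide 1-phosphate between membranes, read 1.91, 1.71 and 1.84 against 0.9, 0.96 and 0.78 (−1.05 ± 0.18, adjusted p = 0.119). The other Cptp probe gave 0.03. Ppp1r3b, which targets protein phosphatase 1 to glycogen, read 2.06, 2.1 and 1.92 against 0.84, 0.71 and 1.25 (−1.16 ± 0.31, adjusted p = 0.495).

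Among these 24 genes the 391 label lay outside all 12 other fat arrays in 14, and the KO label did so in 3 (Pla2g12a, Fmr1 and Sppl2a). Over all 19406 named genes the shares were 0.696% for 391 and 0.546% for KO. The 24 genes were chosen for their difference, so the comparison of these shares is a description. In 12 of the 14 genes, the liver arrays labelled KO lay outside the other 12 liver arrays on the side on which 391 lay in fat. The 12 are Gdi2, Pttg1, Abca5, Psmd8, Mrps12, Adat2, Thg1l, Fmr1, Dmtf1, Abhd1, BC018473 and Gbp2b. The liver arrays labelled 391 lay outside in 0 of the 24. Over all named genes the liver shares were 1.37% for KO and 0.804% for 391.

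The difference between the labels was tested against that in liver in 1 fit of all 30 arrays. This interaction called 129 probes (0.277%), of which 120 had opposite signs in the tissues. It is the fat difference minus the liver difference, so opposite signs enlarge it and the count of 120 is partly fixed by the selection. Over all probes 53.9% were opposite. The 5 genes named on the side higher in fat are Gdi2 (6.46), Pttg1 (3.09), Abca5 (1.96), A1cf (2.30) and Sugct (4.11). The 5 on the other side are Abhd1 (−3.04), Thg1l (−1.67), BC018473 (−5.83), Adat2 (−1.94) and Dmtf1 (−1.60). Sugct, a mitochondrial transferase of glutarate, read 0.9, 1.21 and 1.13 in fat under KO and 0.42, 0.37 and 0.44 under 391. In liver it read 0.16, 0.16 and 0.18 under KO and 1.26, 1 and 1.05 under 391. A1cf, a partner of the enzyme that edits apolipoprotein B message, lay at −2.46 in liver and at −0.16 in fat.

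The sum of the fat and liver differences, which is large where both tissues differ in the same direction, called 9 probes (0.0193%). Among these, Anxa1 (0.97 in fat, 0.04 in liver) and Aard (1.20 and 0.19) rest on the fat difference, and A1cf, Krt72, Slc22a26, Smlr1 and Hao2 on the liver difference. Rbfox2, a splicing regulator, lay at −0.63 in fat and −0.07 in liver, and a probe with no gene name (104730364) at −0.66 and −0.31. The contrast was added after the data were seen.

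None of the 14 genes of the growth hormone axis was called, and 1 of them, Igfals, had an unadjusted p under 0.05. Igf1, the growth factor made under growth hormone, read 0.85, 0.88 and 0.88 under KO and 1.04, 0.91 and 1.02 under 391. The groups did not overlap, and the difference was not called (−0.18 ± 0.72, 95% confidence interval −1.75 to 1.38, adjusted p = 0.984). The SD was 0.03 under KO and 0.10 under 391, whereas the 569 arrays, which enter the pooled SE, read 4.46, 4.02 and 0.34. With the 6 arrays alone the limma adjusted p was 0.563. The arrays labelled WT read 1.76, 3.08 and 2.02 and those labelled Box1 0.63, 0.65 and 1, so KO and 391 lay with Box1 and below WT. The other Igf1 probe lay at −0.49 ± 0.63, with overlapping groups. Igfals, the subunit that keeps IGF1 in plasma, read 0.66, 0.66 and 0.69 under KO, 1.31, 1 and 0.84 under 391 and 2.31, 4.07 and 2.16 under WT. Its difference was −0.62 ± 0.27 (adjusted p = 0.72).

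The feedback inhibitors of the pathway did not pass either. Cish read 1, 0.55 and 0.48 under KO and 1.34, 0.79 and 0.71 under 391 (−0.50 ± 0.58, adjusted p = 0.918). Socs2 lay at −0.11 ± 0.48, Socs3 at −0.26 ± 0.41 and Socs1 at −0.34 ± 0.34. The kinase Jak2 lay at 0.15 ± 0.27 and its transcription factors Stat5a at 0.09 ± 0.25 and Stat5b at −0.14 ± 0.10. Among the IGF carriers Igfbp3, the main carrier in blood, lay at 1.23 ± 0.61 (adjusted p = 0.756), with 2.29, 1.79 and 0.95 under KO and 1.01, 0.69 and 0.43 under 391. Igfbp4 lay at 0.70 ± 0.76, Igfbp2 at −0.11 ± 0.47 and Igfbp5 at −0.26 ± 0.34. For Igfbp4 the 569 arrays, which enter the pooled SE, read 1.18, 1.19 and 0.09.

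Among 20 pathway lists and 14 marker lists no member was called by limma on the probe with the largest spread, so the lists are described by their counts. Over the 19406 named genes, 10834 were higher under KO and 8571 were lower, which is the background for the list counts in fat. At an unadjusted p under 0.05, 4.52% of the named genes were higher under KO and 2.79% were lower. All 3 arrays labelled KO lay above all 3 labelled 391 in 8.78% of all probes and below them in 4.94%. Among the named genes, each read by its probe with the largest spread, they lay above in 1942 and below in 981. The median difference over all genes was 0.03.

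The glucocorticoid and fasting response list stood higher under the KO label. Glucocorticoids act on fat through the glucocorticoid receptor, and the list mixes genes of their response with regulators of fuel use in fasting. Of 19 measured members 18 were higher, 8 of them at an unadjusted p under 0.05, and in 13 the groups did not overlap. The median difference was 0.83, between 0.64 and 0.995 when any 1 of the 6 arrays was left out. In liver 16 of the same 19 members were lower under KO, with a median of −0.30, and 15 had the opposite sign to fat.

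Klf9, a zinc-finger repressor that is a direct target of the glucocorticoid receptor, read 1.32, 1.89 and 1.44 under KO and 0.95, 0.68 and 0.6 under 391. Its difference was 1.07 ± 0.25 (adjusted p = 0.408). Pdk4, the kinase that shuts down pyruvate dehydrogenase in fasting, read 1.55, 1.71 and 1.85 against 0.46, 1.03 and 0.61 (1.36 ± 0.46, adjusted p = 0.593). Tsc22d3, the glucocorticoid-induced leucine zipper, read 2.31, 2.6 and 1.42 against 1.12, 0.66 and 1.03 (1.16 ± 0.43, adjusted p = 0.664). In each of these 3 genes every KO array lay above every 391 array.

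Mt2, a metal-binding protein induced by metals and glucocorticoids, read 5.01, 2.15 and 1.69 against 1, 0.41 and 0.57 (2.09 ± 0.78, adjusted p = 0.664), with the first KO array highest. The other 4 members at an unadjusted p under 0.05, named after their values were seen, were Sgk1 (1.17), Fkbp5 (1.31), Per1 (1.16) and Zbtb16 (0.65). The receptor gene itself, Nr3c1, lay at 0.13 with overlapping groups. Fgf21 was the member that was not higher (−0.02).

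The core clock list was split, without a called member. The clock is a loop in which Arntl with Clock or Npas2 activates Per and Cry genes through E-boxes, Nr1d and Ror proteins act on the ROR element of Arntl, and Dbp, Tef, Hlf and Nfil3 meet at D-boxes. Of 17 members 11 were higher and 6 lower under KO. At an unadjusted p under 0.05, 6 were higher (Npas2, Rora, Arntl, Nfil3, Per1 and Clock) and 2 lower (Per3 and Dbp). In liver 13 of the 17 had the opposite sign.

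Npas2, Arntl and Rora lay higher under KO, each without overlap. Npas2 read 1.74, 1.81 and 1.26 under KO and 0.61, 0.56 and 0.52 under 391 (1.49 ± 0.32, adjusted p = 0.279). Arntl read 1.73, 1.2 and 1 against 0.75, 0.54 and 0.44 (1.18 ± 0.37, adjusted p = 0.555), and Rora, which activates Arntl, read 1.94, 1.77 and 1.69 against 0.78, 0.65 and 0.66 (1.37 ± 0.31, adjusted p = 0.358). In liver the same 3 differences were −0.40, −1.30 and −0.36.

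Per3 and Dbp lay lower under KO, each without overlap. Per3 read 0.66, 1.02 and 1.22 under KO and 2.09, 1.31 and 1.64 under 391 (−0.82 ± 0.27, adjusted p = 0.591). Dbp read 0.73, 0.59 and 1.28 against 3.42, 1.55 and 3.5 (−1.69 ± 0.66, adjusted p = 0.675). In liver the differences were 1.90 for Per3 and 2.44 for Dbp. The interaction was called for Npas2, Rora, Per3 and Nfil3 (adjusted p = 0.0153, 0.0443, 0.0125 and 0.0426) and was not called for Arntl (adjusted p = 0.0521) or Dbp (adjusted p = 0.137). No source used here gives the hour at which each group was taken.

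**Figure D4:**
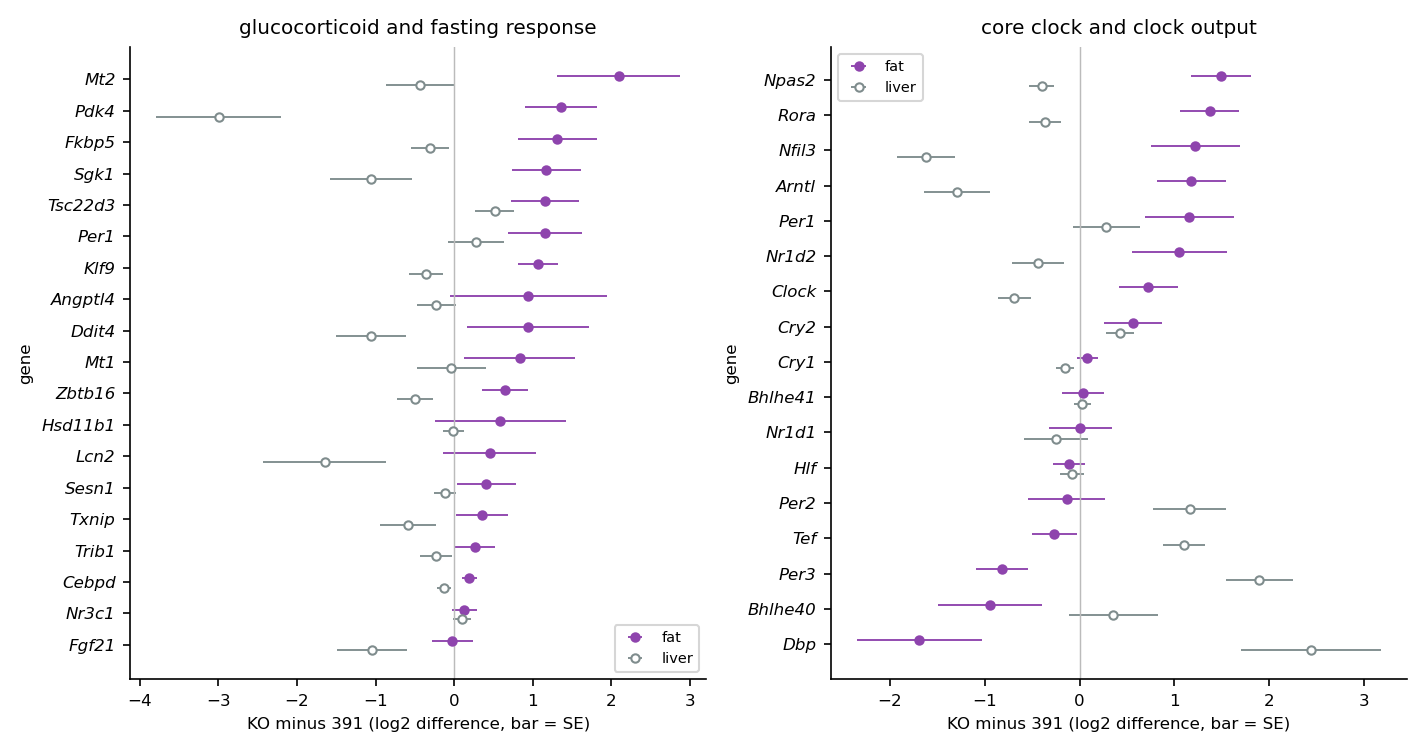
KO minus 391 log2 difference with its SE for each measured member of the glucocorticoid and fasting list (left) and of the clock list (right), in fat (filled) and in liver (open). In fat 18 of 19 members on the left are above 0, and on the right Npas2, Rora, Nfil3 and Arntl are positive in fat and negative in liver, while Per3 and Dbp are the reverse.

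Of the 19 clock genes listed, 16 had a window of 250 bases before to 50 after a transcript start in the RefSeq promoter table (GRCm38.p6). The 3 stretches below are shown because they carry clock motifs in genes of the list that were high or low. Capitals mark the motif. The Per3 stretch, chr4:151044804-151044882 on the minus strand, holds 2 D-boxes (TTATGTAA) that begin 205 and 158 bases before the start. The Per1 stretch, chr11:69098756-69098815 on the plus strand, holds an E-box (CACGTG) 166 bases before the start. The Arntl stretch, chr7:113207528-113207557 on the plus strand, holds a ROR element (the half-site AGGTCA directly after AANT) 27 bases after a start.
Per3: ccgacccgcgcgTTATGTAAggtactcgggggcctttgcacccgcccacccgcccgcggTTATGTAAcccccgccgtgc
Per1: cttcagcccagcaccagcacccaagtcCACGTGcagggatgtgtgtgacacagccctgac
Arntl: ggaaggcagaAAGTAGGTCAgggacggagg
Both strands were searched. The D-box was found in 0.938% of all 32851 windows, the E-box in 7.15% and the ROR element in 0.219%. Among the 16 clock genes, Per3 alone held the D-box, Arntl alone the ROR element, and Bhlhe41, Ciart, Cry1, Per1 and Tef the E-box. The glucocorticoid element (GNACA and TGTNC with 3 bases between them) was found in 0.475% of all windows and in Mt1, Sgk1 and Txnip among the 14 genes of the glucocorticoid and fasting list that had a window. A match is a description of these letters and not a site of binding.

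The immediate early genes, transcribed within minutes of a stimulus, were higher under KO in 18 of 21, 4 of them at an unadjusted p under 0.05 (median 0.36). Fos read 0.93, 6 and 5.01 under KO and 0.84, 0.29 and 0.87 under 391 (2.35 ± 0.93, adjusted p = 0.678), so the second and the third KO array were high and the first was near 391. Klf4, a zinc-finger factor of the same early response, read 1.52, 2.2 and 1.75 against 0.89, 0.81 and 0.93 (1.04 ± 0.47, adjusted p = 0.74). Ier2 lay at 0.41 ± 0.13 and Myc at 0.36 ± 0.16.

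Among cell cycle genes, 19 of 24 were lower under KO (median −0.26), 3 of them at an unadjusted p under 0.05. The largest difference of the list went the other way. Cdkn1a, the p21 inhibitor of cyclin-dependent kinases, read 2.69, 2.04 and 1.4 under KO and 0.45, 0.59 and 0.28 under 391 (2.23 ± 0.68, adjusted p = 0.555). In liver Cdkn1a lay at −3.39, and the interaction was called (adjusted p = 0.00683). Birc5, which guards chromosome segregation, lay at −0.59 ± 0.27, Ccne1 at −0.41 ± 0.18 and Ccna2 at −0.27 ± 0.12, each with overlapping groups.

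Adipocyte identity genes were higher under KO in 20 of 23 (median 0.20), with 9 not overlapping, and adipokines in 15 of 18 (median 0.33), with 5 not overlapping. Cd36, the fatty acid translocase, read 1.06, 1.05 and 1.49 under KO and 0.57, 0.64 and 0.66 under 391 (0.93 ± 0.42, adjusted p = 0.74). Nampt, which makes the NAD precursor, lay at 0.45 ± 0.16, and Agt, the precursor of angiotensin, at 0.82 ± 0.31. In both adipokines the groups did not overlap.

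Fatty acid synthesis and triglyceride assembly was split, with 10 members higher and 14 lower (median −0.13). Lpin1, the phosphatidate phosphatase, read 1.86, 2.45 and 1.73 under KO against 0.77, 1.01 and 0.76 under 391 (1.25 ± 0.38, adjusted p = 0.555). Pnpla3, a lipase regulated by feeding, went the other way with 0.55, 0.88 and 0.94 against 2.08, 2.9 and 1 (−1.24 ± 0.46, adjusted p = 0.661). Acacb lay at 1.14 ± 0.50 and Mlxipl at 0.57 ± 0.26, both with overlap. Lipolysis and adrenergic genes were higher in 10 of 17 (median 0.11). Insulin signalling was higher in 15 of 26 (median 0.08), fatty acid oxidation in 11 of 21 (median 0.13), and cholesterol synthesis in 4 of 18 (median −0.16). With 1 array left out, the median ran from −0.26 to 0.005 for fatty acid synthesis, from −0.08 to 0.12 for oxidation and from −0.01 to 0.09 for insulin signalling, so none of these 3 kept its sign.

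Respiratory chain genes were higher under KO in 27 of 31 (median 0.20), 1 of them at an unadjusted p under 0.05. The median ran from 0.08 without the third 391 array to 0.37 without the second. Collagen and matrix genes were higher in 24 of 30 (median 0.19). Without the second 391 array, whose own list median was −0.82, 13 of the 30 were higher and the median was −0.05, and it reached 0.38 without the third. Thbs2, a matricellular protein that restrains vessel growth, read 3.33, 3.67 and 3.12 under KO and 1.11, 0.52 and 0.68 under 391 (2.20 ± 0.69, adjusted p = 0.558). Sparc, another matricellular protein, lay at 1.62 ± 0.64 and Thbs1 at 1.03 ± 0.48. Cytosolic ribosomal proteins were higher in 19 of 29 (median 0.09), from 12 (median −0.05) without the first KO array to 26 (median 0.21) without the first 391 array. Of the signalling lists, JAK-STAT members were higher in 10 of 26 (median −0.12, from −0.22 to 0.05 with 1 array left out), Src and ERK members in 12 of 23 (median 0.03) and inflammatory cytokines in 13 of 25 (median 0.01).

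Interferon and MHC genes were lower under KO in 26 of 29 (median −0.25), with 0 at an unadjusted p under 0.05. Without the first 391 array 16 of 29 were lower and the median was −0.06, and without the second it was −0.42. In liver 26 of 29 were higher, with a median of 0.42. Psmb9, a catalytic subunit of the immunoproteasome, read 0.93, 0.5 and 0.58 under KO and 1.58, 1.17 and 1 under 391 (−0.93 ± 0.63, adjusted p = 0.84). Ciita, the activator of MHC class II, read 1.25, 0.25 and 0.45 against 1.53, 1 and 1.16 (−1.22 ± 0.71).

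Lymphocyte markers were low in 2 of the arrays labelled KO. The median log2 ratio of the lymphocyte list was 0.50 in the first KO array and −2.25 and −1.89 in the second and the third, against 0.70, 0.52 and 0.00 in the arrays labelled 391. Of 17 markers 16 were lower under KO (median −1.75), between −2.68 and −0.98 with 1 array left out. Cd3e, a chain of the T cell receptor complex, read 1.1, 0.13 and 0.13 under KO and 1.6, 1.29 and 1 under 391. Cd8b1 read 1.33, 0.07 and 0.08 against 1.63, 1.41 and 1. The part of lymphocyte content in the interferon, MHC and cell cycle differences was not tested, and in bulk tissue fewer cells of a type and less RNA per cell cannot be told apart.

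Skeletal muscle markers varied within both groups. The list median was −0.36, 3.16 and 0.76 in the arrays labelled KO and 0.88, 0.00 and 1.46 in those labelled 391. Of 23 markers 18 were higher under KO, 0 of them at an unadjusted p under 0.05, and the list median ran from −0.50 to 1.30 with 1 array left out. Ckm, muscle creatine kinase, read 0.59, 14.4 and 2.23 under KO and 1.7, 1 and 3.37 under 391. The second KO array was thus the one with most muscle message. Without it the respiratory chain list had 25 of 31 members higher and a median of 0.16, and the Ckm difference of 0.58 turned to −0.64.

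Brown adipocyte markers were high in the second 391 array, with a list median of 1.29 against −0.25 and −0.11 in the other arrays of that label and −0.22, 0.27 and −0.03 under KO. Ucp1, the uncoupling protein that defines brown and beige fat, read 0.61, 13.94 and 1.3 under 391 and 0.3, 1.27 and 1 under KO. The thermogenic list, which shares genes with these markers, was lower under KO in 14 of 21 (median −0.16), a count that ranged from 8 to 17 with 1 array left out. The adipocyte markers lay between −0.27 and 0.11 in all 6 arrays, and the macrophage markers between −0.22 and 0.11.

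**Figure D5:**
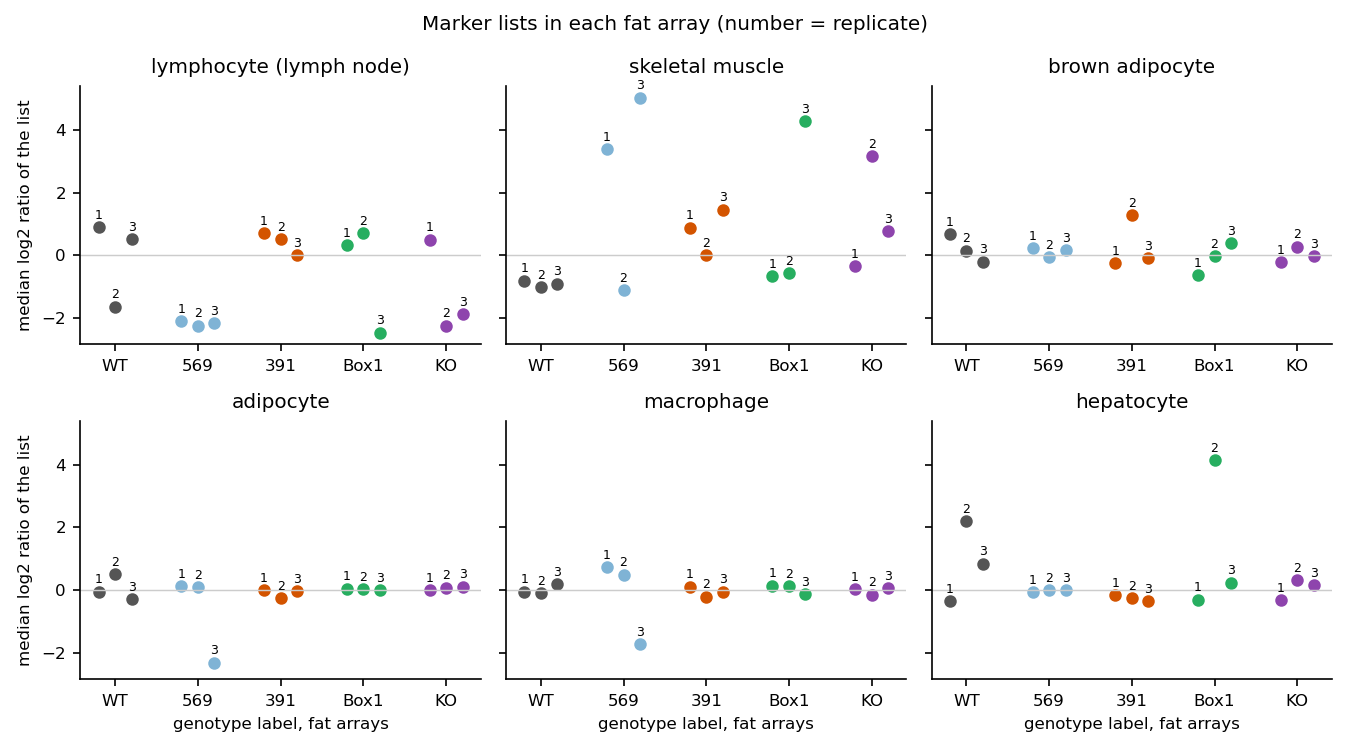
Median log2 ratio of 6 marker lists in each of the 15 fat arrays, by genotype label, with the replicate number beside each point. Lymphocyte markers are low in the second and the third KO array (−2.25 and −1.89), skeletal muscle markers are high in the second KO array (3.16), brown adipocyte markers are high in the second 391 array (1.29), and the third 569 array is low in adipocyte markers (−2.32).

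The remaining marker lists had no called member. Plasma cell markers had a median difference of −0.02, mast cell markers 0.06, endothelial markers 0.11, smooth muscle markers 0.17, fibroblast markers 0.19, erythroid markers 0.20, nerve markers 0.23, epithelial markers 0.06 and hepatocyte markers 0.31. Over all probes the second and the third KO array correlated with each other at 0.60, whereas the first KO array correlated with them at −0.12 and −0.06. The 3 arrays labelled 391 correlated with each other between 0.16 and 0.31. Pairs of a KO and a 391 array lay between −0.35 and 0.16. The highest of these pairs was the first KO array with the first 391 array, above the values of that KO array with its own label. No pair of the 6 arrays held the same ratio in more than 1446 of the 46643 probes.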

How the data were processed

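Total RNA of frozen tissue was labelled with biotin and run on Illumina arrays by a facility, per the labels' protocols. The deposited ratio is each probe over its own median across the 15 arrays of a tissue, as the values show: the median is 1 for all 46643 probes. For the authors' background correction, normalization and software no source used here gives a method, and the ratio keeps no signal level, so no filter on dim probes was possible.

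Ratios were taken to log2 without an offset and fitted with limma 3.58.1 in R 4.3.3 (lmFit, eBayes), all 15 fat arrays in 1 fit, with Benjamini-Hochberg adjustment over all probes. Liver was fitted likewise, and the interaction used all 30 arrays. The scripts were tested on simulated data. KO and 391 share a slide, so a slide block leaves their contrast as it is. The platform annotation pairs 32794 probes with 1 symbol and 55 with several, and 13794 have none. A gene is read by its probe with the largest SD over the fat arrays.

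The rule for named genes took 14 axis genes, 12 genes each way without overlap (called first, then by p with a difference of at least 1), 4 per list by p, and 5 each way for the interaction. Members and lists were chosen with earlier results of these data known. Alternatives were the 6 arrays alone, quantile normalization, median centring, an offset of 0.1, array weights, robust eBayes, a filter on low SD, each array left out, and, added after seeing the data, a fit without the third 569 array and a fit of all 30 arrays. Motifs were searched with Python 3.11.15. With 3 arrays a group, an exact permutation test of 1 value cannot go below p = 0.10, so none was used.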

Additional observations from a re-analysis of the deposited data

Results flagged for a closer look

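For 25 of the 42 probes of genes named as axis genes, among the 24 taken by p, or for the interaction, or called, the KO minus 391 difference in fat differed from that in liver by the interaction test. In 23 of these the signs were opposite, and 11 were called in liver. The 42 were picked partly by this same interaction and partly by their fat difference, which enters it, so these counts are descriptions. Over all probes the interaction called 0.277%. The interaction (fat difference minus liver difference, log2) on the side higher in fat was 6.46 for Gdi2, 4.93 for Psmd8, 4.11 for Sugct, 3.09 for Pttg1, 2.44 for Pla2g12a, 2.30 for A1cf, 2.28 for Rab6b, 2.11 for Mrps12, 1.96 for Abca5, 1.89 for Dctn3, 1.67 for Cpne9, 1.64 for Tead1, 1.30 for Trim16 and 0.94 for Anxa1. On the other side it was −5.83 for BC018473, −3.31 for Gbp2b, −3.04 for Abhd1, −2.85 for Cptp, −1.96 for the probe with no gene name, −1.94 for Adat2, −1.85 for Ppp1r3b, −1.67 for Thg1l, −1.60 for Dmtf1, −1.30 for Sppl2a and −1.24 for Fmr1. The adjusted p lay between 4.06e-09 for Gdi2 and 0.0485 for Ppp1r3b.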

How the results depend on the processing

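All 8 called probes stayed called with quantile normalization, median centring, an offset of 0.1, array weights and robust eBayes, without the third 569 array and in the 30-array fit. Against 8 called probes, 123 were called with the 6 arrays alone (7 of the 8 among them), 81 with quantile normalization, 28 with array weights, 43 without the third 569 array, 135 in the 30-array fit and 4 with low-SD probes left out. With 1 KO or 391 array left out the count ran from 0 to 12. The interaction called 129 probes, 444 with quantile normalization, 325 with the 12 arrays of these labels alone, and 70 to 164 with 1 array left out. Among 93 genes and probes refitted, signs turned with 1 array left out in 8, none of them called: Igfbp2 (−0.25 to 0.014), Igfbp5 (−0.73 to 0.018), Jak2 (−0.044 to 0.32), Socs2 (−0.44 to 0.10), Stat5a (−0.0081 to 0.16), Ckm (−0.64 to 1.66), Fgf21 (−0.22 to 0.17) and Nr3c1 (−0.037 to 0.30). The causes were not tested. The median of the glucocorticoid list was 0.83, 0.73 with all probes of a gene averaged and 1.001 with quantile normalization. No paired analysis was possible because the labels give no replicate numbers. Signal over background is unknown for every probe.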

Other observations

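Distances in the RefSeq order of protein-coding genes were taken among genes called in fat or taken by the rule for fat differences. The closest pair was Pttg1 and Thg1l, which differed in opposite directions and are 14 genes apart. Mrps12 and Psmd8, both lower under the 391 label in fat and under the KO label in liver, are 19 apart. The next pair was 65 apart. Whether such distances are short for genes taken at random was not tested.

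Of the 24 genes taken by the rule for fat differences, 14 have further probes, 24 in all. Of these further probes 16 had the sign of the named probe, and 3 (of Mrps12, Ppp1r3b and Tead1) had a difference of at least 50% of its size.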
